A study of Mus musculus with 9 samples.

Results

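The genes of the ubiquitin-conjugating enzymes were measured in 9 single mouse oocytes, 1 oocyte per Affymetrix Mouse Gene 1.0 ST array. A gene was a member when a row of the table carried its symbol alone and the symbol began with Ube2 and a letter. Of several such rows of a gene, the one whose mean over the 9 arrays was highest stood for it. In all, 35 of the 19938 genes with a row of their own were members. The oocytes were unfertilized, at metaphase II, and came from unmated ICR females, an outbred strain, aged 2 months. To induce ovulation, all females had received PMSG (10 IU) and, after 46 hours, hCG (10 IU). RNA of 3 oocytes was purified on RNeasy Mini columns, RNA of 3 others on PicoPure columns, and the remaining 3 were used as crude lysates after NuGEN direct lysis. Every sample was then amplified with NuGEN WT Ovation One-Direct. Each condition drew 1 to 3 cells from each of 3 mice, and the labels do not tie an oocyte to a mouse, so the p-values measure only the spread between these oocytes. The samples set these ways of preparing RNA from a single cell side by side.

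Ubiquitin is a small protein that is attached to other proteins and marks many of them for degradation by the proteasome. An activating enzyme (E1) charges a conjugating enzyme (E2), which carries ubiquitin on a cysteine and, with the help of a ligase (E3), passes it to the target. In oocytes this chain of enzymes is known for the destruction of cyclin B and securin by the anaphase-promoting complex, the ligase that is held inactive at metaphase II and released at fertilization. Most genes of the Ube2 series encode such E2 enzymes. Some differ: Ube2v1 and Ube2v2 encode variants without the catalytic cysteine, and Ube2f and Ube2l6 carry the ubiquitin-like proteins NEDD8 and ISG15. Ube2cbp, also called Ube3d, encodes a ligase that binds the product of Ube2c.

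Values are the authors' normalized expression values, read as log2. A gene was called above background on an array when its value exceeded the 95th percentile of the olfactory, vomeronasal and taste receptor genes of that array, a level between 7.19 and 7.48. Of the 10 oocyte markers, among them Zp3, Gdf9 and Bmp15, all 10 lay above background on all 9 arrays. Of the 12 cumulus and granulosa cell markers with a row, 1 (Foxl2) did so and 7 were above it on no array. Inhba (8.48), Tnfaip6 (8.39) and Ptgs2 (7.56) were above it only on RNeasy replicate 3, and Ptx3 was on 2 arrays. Whether this bears on the other values of RNeasy replicate 3 was not tested. All 5 blood cell markers with a row were above background on no array. Of 5 oviduct markers with a row, 1 (Krt8) lay above background on all 9 arrays, Pax8 on 8, Krt18 on 2 and the other 2 on none.

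Most of the enzyme genes were present in the mature oocyte. Of the 35 members 25 (71.4%) lay above background on all 9 arrays, against 43.1% of all genes. Another 5, Ube2f, Ube2o, Ube2ql1, Ube2r2 and Ube2u, were above it on 8 arrays. The remaining 5, Ube2d2b, Ube2dnl1, Ube2dnl2, Ube2j2 and Ube2l6, were above it on no array, as were 35.1% of all genes. Between 28 and 30 members were above background on each array, with 28 on RNeasy replicate 3. The arrays with 30 were PicoPure replicates 1 and 2 and each of the crude lysates. Over all genes the number ran from 9661, also on RNeasy replicate 3, to 11443 on direct lysis replicate 1. Probes differ in how brightly they bind, so values of different genes were not ranked against each other as amounts of RNA.

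**Figure D1:**
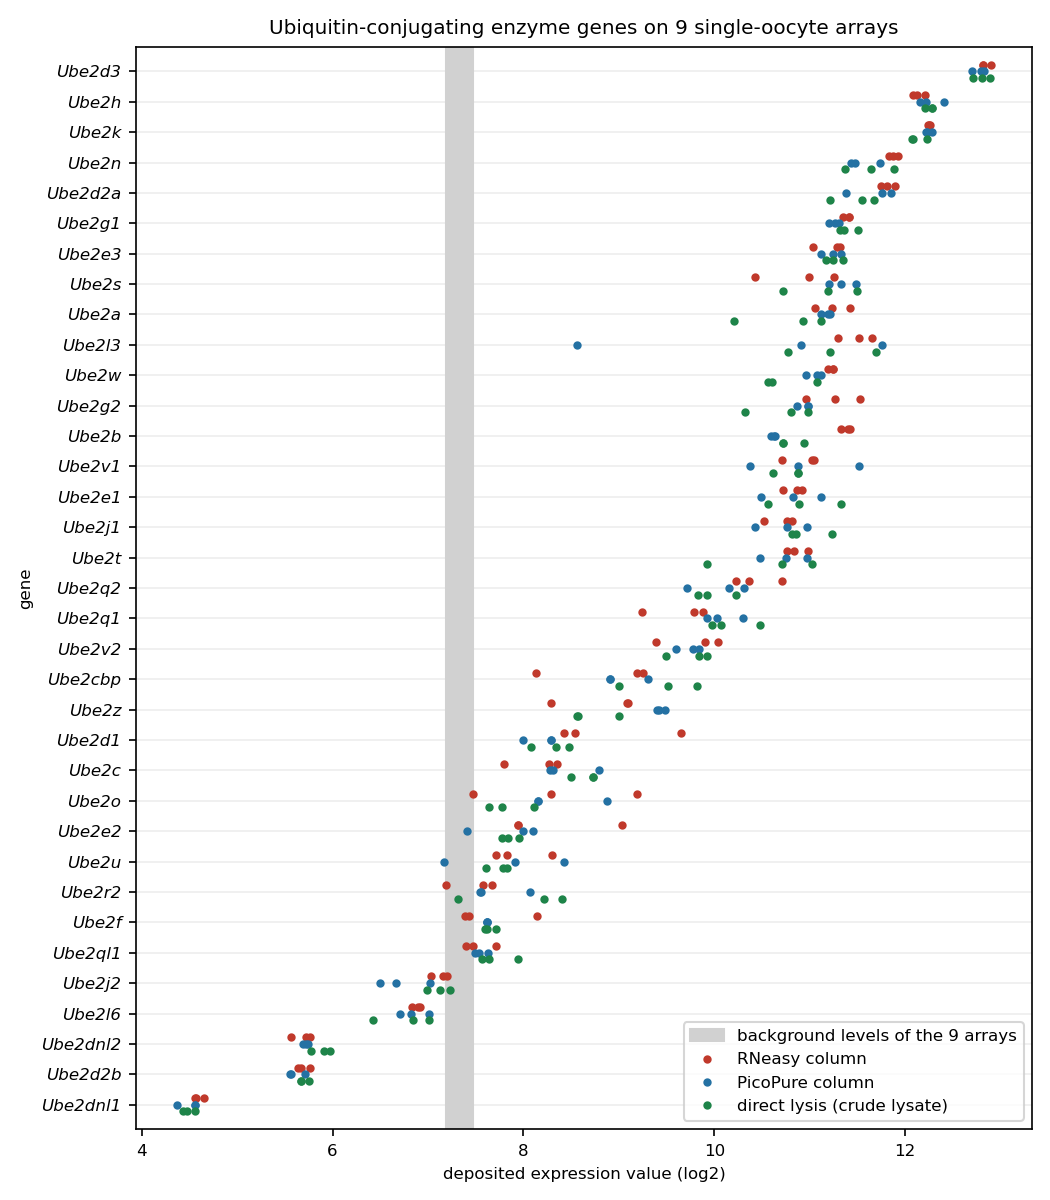
Expression values (horizontal axis, log2) of the 35 genes (vertical axis, sorted by mean for display) on 9 arrays, 1 point per oocyte, coloured by preparation. The grey band spans the background levels of the arrays, 7.19 to 7.48: 5 genes lie within or below it on all arrays, and Ube2l3 has a single point at 8.56 far to the left of its other points.

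The Ube2d genes held the clearest split between members that were present and members that were not, and their start sites are shown for that reason. Ube2d1, Ube2d2a and Ube2d3, which encode broadly used E2 enzymes, were above background on all 9 arrays, whereas their relatives Ube2d2b (5.55 to 5.76), Ube2dnl1 (4.37 to 4.65) and Ube2dnl2 were not on any. Ube2dnl2 had 5.76, 5.57 and 5.72 with RNeasy, 5.72, 5.69 and 5.74 with PicoPure and 5.91, 5.77 and 5.97 with direct lysis. The windows below run from 250 bases before to 50 bases after the gene start, 5′ to 3′ on the gene's strand, as RefSeq gives them for GRCm38.p6. Capitals mark every CG dinucleotide, the base pair step at which vertebrate DNA is methylated and which is common in the promoters of broadly expressed genes. The windows lie at chr10:71285213-71285512 (minus strand) for Ube2d1, chr5:107829912-107830211 (plus) for Ube2d2b, chrX:114904762-114905061 (plus) for Ube2dnl1 and chrX:114907332-114907631 (plus) for Ube2dnl2.
Ube2d1: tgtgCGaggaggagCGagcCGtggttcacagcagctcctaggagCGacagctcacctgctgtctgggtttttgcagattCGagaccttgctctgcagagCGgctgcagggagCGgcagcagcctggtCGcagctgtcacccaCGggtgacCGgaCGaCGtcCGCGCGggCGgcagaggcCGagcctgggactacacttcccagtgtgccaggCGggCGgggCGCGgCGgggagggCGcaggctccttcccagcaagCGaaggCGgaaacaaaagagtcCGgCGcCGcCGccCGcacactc
Ube2d2b: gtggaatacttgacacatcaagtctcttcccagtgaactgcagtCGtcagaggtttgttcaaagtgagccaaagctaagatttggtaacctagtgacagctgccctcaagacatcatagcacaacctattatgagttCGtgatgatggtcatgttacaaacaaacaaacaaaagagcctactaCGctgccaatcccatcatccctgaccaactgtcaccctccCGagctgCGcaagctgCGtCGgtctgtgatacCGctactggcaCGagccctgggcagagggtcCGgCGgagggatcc
Ube2dnl1: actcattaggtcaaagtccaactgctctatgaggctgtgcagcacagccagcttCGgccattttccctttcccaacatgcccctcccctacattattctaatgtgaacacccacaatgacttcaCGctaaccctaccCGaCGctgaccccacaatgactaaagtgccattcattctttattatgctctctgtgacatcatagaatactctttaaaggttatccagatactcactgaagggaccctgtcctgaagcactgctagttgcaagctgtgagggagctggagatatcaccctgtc
Ube2dnl2: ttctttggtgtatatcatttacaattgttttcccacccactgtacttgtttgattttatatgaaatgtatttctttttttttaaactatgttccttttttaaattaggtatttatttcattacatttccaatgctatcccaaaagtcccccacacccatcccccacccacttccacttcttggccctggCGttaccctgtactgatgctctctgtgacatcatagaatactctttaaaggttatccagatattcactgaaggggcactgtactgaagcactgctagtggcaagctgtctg
The window of Ube2d1 held 30 CG dinucleotides, that of Ube2d2b 11, that of Ube2dnl1 4 and that of Ube2dnl2 1.

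The other members with a window were counted in the same way. CG, which reads the same on both strands, occurred at least once in 94.6% of the 32851 windows of the table and at least 20 times in 26.5%. By the first window listed for each gene, 18 of 20 members above background on all arrays had at least 20 CG dinucleotides, against 1 of 5 members above background on none. Over all genes the corresponding shares were 56.1% and 16.5%. The exceptions among the present genes were Ube2l3, with 10, and Ube2b, with 12 in its first window and 36 in the next. Ube2h had 21 in its first window and 4 in the next. Ube2j2 was the gene above background on no array whose windows held more than 20, with 22 and 46. These counts describe the windows and give no information on which promoter was used. Ube2d2a, Ube2e3, Ube2g2, Ube2o, Ube2v2 and Ube2w were not among the 29 members with a window.

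**Figure D2:**
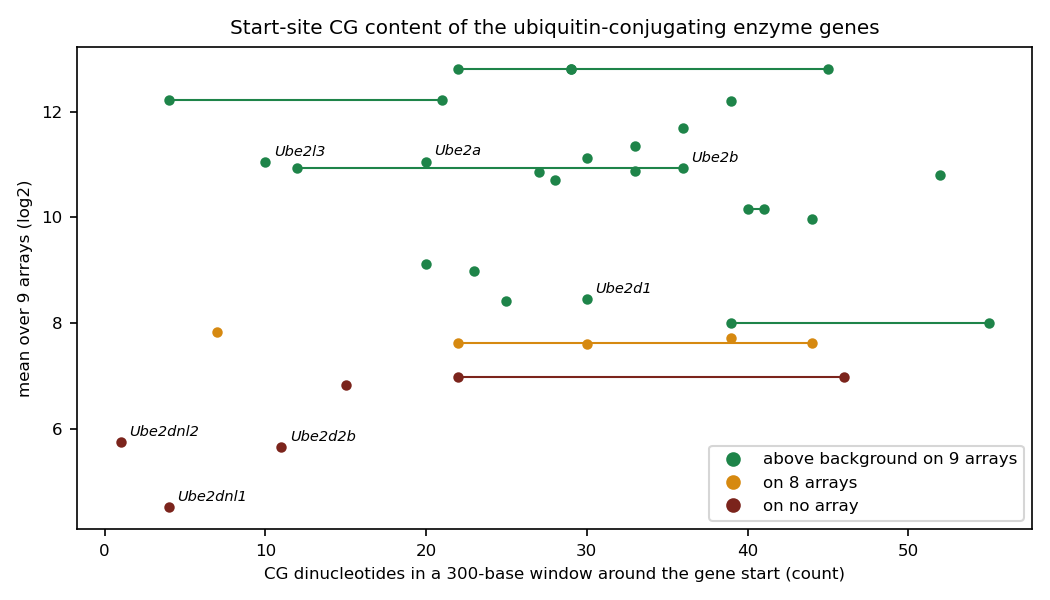
CG dinucleotides in each RefSeq window of 300 bases around a gene start (horizontal axis, count) against the gene's mean over 9 arrays (vertical axis, log2), for the 29 members with a window. Windows of the same gene are joined by a line. Among the genes above background on no array, Ube2dnl2, Ube2dnl1 and Ube2d2b have 1, 4 and 11 CG dinucleotides.

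Both partners of the anaphase-promoting complex were present. Ube2c, which places the first ubiquitins on the complex's targets, had 8.26, 8.35 and 7.80 with RNeasy, 8.79, 8.31 and 8.28 with PicoPure and 8.49, 8.73 and 8.73 with direct lysis. Ube2s, which lengthens those chains, had 10.99, 11.25 and 10.43 with RNeasy, 11.20, 11.33 and 11.48 with PicoPure and 11.19, 11.50 and 10.72 with direct lysis. No preparation stood apart from both others for either gene. RNeasy replicate 3 was the lowest of the 9 oocytes for each of these genes. Neither passed the test in any comparison. Ube2c differed by 0.35 between crude lysate and purified RNA (95% interval -0.02 to 0.73) and Ube2s by 0.02 (-0.48 to 0.52).

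Ube2b was the member that differed most clearly between preparations. Ube2a and Ube2b encode the closely related mammalian counterparts of yeast Rad6, which act on histone H2B with Rnf20 and Rnf40 and on the replication clamp with Rad18. Ube2b had 11.33, 11.43 and 11.40 with RNeasy, 10.63, 10.63 and 10.60 with PicoPure and 10.72, 10.72 and 10.94 with direct lysis. All 3 RNeasy oocytes were above all other oocytes, and the PicoPure oocytes were the lowest and lay close together. RNeasy oocytes averaged 11.38 ± 0.05 (SD, n = 3), PicoPure oocytes 10.62 ± 0.02 (SD, n = 3) and crude lysates 10.79 ± 0.13 (SD, n = 3). Ube2b was 1.70-fold lower with PicoPure than with RNeasy (difference -0.76 ± 0.08 SE on the log2 scale; limma, adjusted p = 0.0207) and differed among the 3 preparations (limma, moderated F, adjusted p = 0.0192).

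Ube2a, the other Rad6 gene, had 11.42, 11.06 and 11.24 with RNeasy, 11.21, 11.19 and 11.12 with PicoPure and 10.93, 11.12 and 10.20 with direct lysis. Its kits overlapped, and direct lysis replicate 3 was the lowest oocyte. Ube2a differed by -0.07 between PicoPure and RNeasy (95% interval -0.57 to 0.44). Within each oocyte, Ube2b minus Ube2a averaged 0.15 ± 0.23 (SD, n = 3) in RNeasy oocytes, -0.55 ± 0.03 (SD, n = 3) in PicoPure oocytes and 0.04 ± 0.61 (SD, n = 3) in crude lysates. The groups of this within-array difference did not pass an exact permutation test of the between-group sum of squares (p = 0.118 over 1680 assignments, where the smallest possible is 0.00357). Between the kits alone, compared after the values were seen, each PicoPure oocyte (-0.57 to -0.52) lay below each RNeasy oocyte (-0.09 to 0.37), with an exact two-sided permutation p of 0.1, the smallest that 3 against 3 can give. Whether the kit difference of Ube2b differs from that of Ube2a is thus not settled by these oocytes.

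The call for Ube2b between kits was lost without any 1 of the purified arrays. Its difference between kits ranged from -0.79 to -0.74 when single arrays were left out, but the adjusted p (limma) rose to 0.0898, 0.0844 and 0.0956 when RNeasy replicate 1, 2 or 3 was dropped, and to 0.0904, 0.118 and 0.105 when PicoPure replicate 1, 2 or 3 was. It was also 0.0644 without direct lysis replicate 1 and 0.0612 with an intensity trend and robust moderation. The moderated F was likewise past the threshold only with all 6 purified arrays, since its adjusted p lay between 0.0556 and 0.0753 when any of them was left out.

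**Figure D3:**
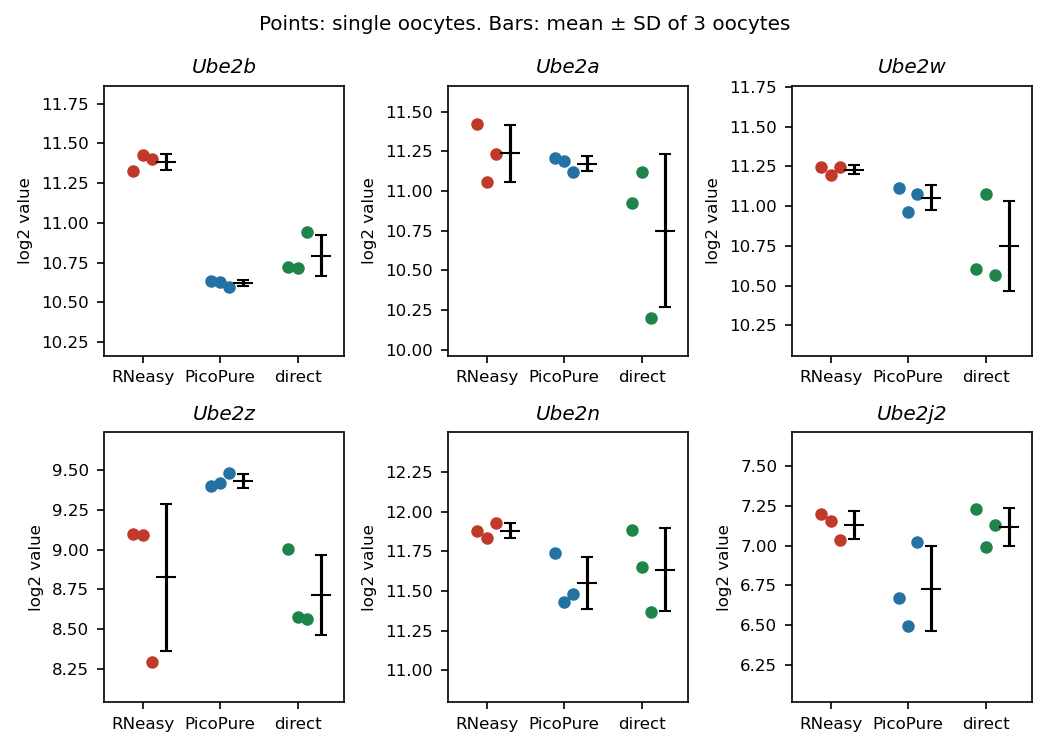
Expression values (vertical axis, log2, each panel spanning the same number of log2 units) of the members with the smallest p-values and of Ube2a, by preparation. Points are single oocytes and bars give the mean ± SD of 3 oocytes. The RNeasy points of Ube2b (11.33 to 11.43) lie above all its other points, while the preparations overlap for Ube2a.

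Among the other Ube2d, Ube2e and Ube2w genes, Ube2d3 varied little. It had 12.81, 12.90 and 12.81 with RNeasy, 12.82, 12.70 and 12.79 with PicoPure and 12.90, 12.81 and 12.71 with direct lysis, and its difference was 0.00 between crude lysate and purified RNA (95% interval -0.15 to 0.14) and -0.07 between kits (-0.24 to 0.10). Ube2d2a had 11.81, 11.74 and 11.89 with RNeasy, 11.85, 11.75 and 11.38 with PicoPure and 11.55, 11.21 and 11.67 with direct lysis. PicoPure replicate 3 and direct lysis replicate 2 were its lowest oocytes. Ube2d1 had 8.42, 8.54 and 9.65 with RNeasy, 8.29, 7.99 and 8.29 with PicoPure and 8.08, 8.35 and 8.47 with direct lysis, so that a single oocyte, RNeasy replicate 3, stood above all others. Ube2e2 had 9.03, 7.94 and 7.94 with RNeasy, 8.10, 8.0 and 7.41 with PicoPure and 7.95, 7.83 and 7.77 with direct lysis, likewise with 1 high oocyte, RNeasy replicate 1. Ube2e1 and Ube2e3, its close relatives, stayed between 10.49 and 11.33 and between 11.04 and 11.35.

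Ube2w, whose product attaches ubiquitin to the amino terminus of proteins, had the smallest p-value of the members for crude lysate against purified RNA. It had 11.25, 11.20 and 11.24 with RNeasy, 11.12, 10.97 and 11.08 with PicoPure and 10.60, 11.08 and 10.56 with direct lysis. Direct lysis replicates 1 and 3 were the lowest oocytes, while replicate 2 had the identical value of PicoPure replicate 3, 11.08. The difference was -0.39 ± 0.12 SE and did not pass (limma, adjusted p = 0.193). Without direct lysis replicate 2 it was -0.56 and passed (adjusted p = 0.0206).

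The genes for signalling-type ubiquitin chains were above background on all 9 arrays in the row used for each. Ube2n encodes the E2 that builds these chains, and Ube2v1 and Ube2v2 encode its inactive partners. Ube2n had 11.88, 11.83 and 11.93 with RNeasy, 11.74, 11.43 and 11.48 with PicoPure and 11.89, 11.65 and 11.37 with direct lysis. Each PicoPure oocyte lay below each RNeasy oocyte, and the crude lysates spanned both (PicoPure minus RNeasy -0.33 ± 0.14 SE; limma, adjusted p = 0.614). Ube2v1 ranged from 10.38 to 11.52, both in PicoPure oocytes, and Ube2v2 from 9.39 to 10.04, both in RNeasy oocytes. Another row of Ube2v1 was above background on 6 arrays and did not follow the used row (Pearson's r -0.33). Another row of Ube2v2 was above background on no array (r 0.35). The remaining row of each gene was above background on all 9 arrays, with r of 0.86 for Ube2v1 and 0.9997 for Ube2v2. Which transcripts each of these rows reads was not tested, so the values of the used rows may not be those of Ube2v1 and Ube2v2 themselves.

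Few carriers of ubiquitin-like proteins were measured. Ube2m, the main NEDD8 carrier, had no row of its own and was not analysed here. Ube2l6, the ISG15 carrier, lay between 6.43 and 7.01 and above background on no array. Ube2f, the second NEDD8 carrier, lay between 7.38 and 7.71 in all oocytes but RNeasy replicate 3, at 8.14. It had the identical value, 7.62, on every PicoPure array and on direct lysis replicate 2. Such ties across preparations were not particular to Ube2f. Ube2v1 had 10.88 on PicoPure replicate 1 and direct lysis replicates 2 and 3. Ube2g2 had 10.98 on PicoPure replicates 2 and 3 and direct lysis replicate 3. Each tied value was the gene's median over the 9 arrays. The origin of the ties and their effect on the spread between oocytes were not tested. A row that names Gm5434 beside Ube2f had a mean of 10.63.

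Enzymes of the endoplasmic reticulum and of degradation chains were mixed. Ube2g2 and Ube2j1, which serve the removal of misfolded proteins from the endoplasmic reticulum, were above background on all arrays, with ranges of 10.32 to 11.53 and 10.43 to 11.24. Ube2j2, which has a related role, was not above background on any array in its own row: it had 7.20, 7.15 and 7.03 with RNeasy, 6.67, 6.50 and 7.02 with PicoPure and 7.23, 6.99 and 7.13 with direct lysis. Its PicoPure oocytes lay below its RNeasy oocytes (difference -0.40 ± 0.14 SE; limma, adjusted p = 0.522), on values that were all below background. A row that names Gm5801 beside Ube2j2 ranged from 6.70 to 8.25 and was above background on 4 arrays. Ube2g1 and Ube2k, which build chains that lead to the proteasome, varied little. Ube2g1 had 11.41, 11.41 and 11.35 with RNeasy, 11.26, 11.30 and 11.20 with PicoPure and 11.36, 11.50 and 11.31 with direct lysis. Ube2k had 12.24, 12.27 and 12.25 with RNeasy, 12.23, 12.22 and 12.29 with PicoPure and 12.23, 12.07 and 12.08 with direct lysis, with direct lysis replicates 2 and 3 its lowest oocytes. Ube2r2, a relative of the cell cycle E2 Cdc34, ranged from 7.19 to 8.41.

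Among the remaining genes Ube2h, the E2 of the CTLH ligase complex, had 12.09, 12.21 and 12.13 with RNeasy, 12.40, 12.16 and 12.21 with PicoPure and 12.28, 12.21 and 12.29 with direct lysis, with all preparations overlapping. Ube2z, which is charged by the activating enzyme Uba6, had 9.10, 9.09 and 8.29 with RNeasy, 9.40, 9.42 and 9.48 with PicoPure and 9.01, 8.58 and 8.56 with direct lysis. The PicoPure oocytes lay above all others, and RNeasy replicate 3 was the lowest (PicoPure minus RNeasy 0.61 ± 0.22 SE; limma, adjusted p = 0.552), and the difference was 0.34 without RNeasy replicate 3. Ube2cbp had 9.19, 9.25 and 8.13 with RNeasy, 8.91, 8.90 and 9.30 with PicoPure and 9.82, 9.51 and 9.0 with direct lysis, again with RNeasy replicate 3 the lowest. Ube2t, the E2 of the Fanconi anaemia DNA repair pathway, lay between 10.48 and 11.02 except for direct lysis replicate 3 at 9.92. Ube2q1 and Ube2q2 lay between 9.24 and 10.48 and between 9.71 and 10.71, and Ube2o between 7.47 and 9.19. Ube2u and Ube2ql1 lay near background, between 7.17 and 8.42 and between 7.40 and 7.95.

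The row used for Ube2l3 differed between oocytes more than that of any other member. It encodes the E2 used by ligases that pass ubiquitin through a cysteine of their own. It had 11.30, 11.65 and 11.52 with RNeasy, 11.76, 10.91 and 8.56 with PicoPure and 11.69, 10.77 and 11.21 with direct lysis. A single oocyte, PicoPure replicate 3, lay 2.22 log2 units below the next lowest, while the other 8 averaged 11.35 ± 0.37 (SD, n = 8). The difference between kits was -1.08 ± 0.71 SE (limma, adjusted p = 0.766), -0.15 ± 0.33 SE without that oocyte and -1.75 without PicoPure replicate 1.

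The rows of the table that name Ube2l3 did not all behave alike. A second row had 7.37 in PicoPure replicate 3 and 10.66 to 11.66 in the other oocytes, and a row shared with the gene Gm6098 had 7.27 there and 10.85 to 11.91 elsewhere. The remaining row of Ube2l3 alone had 8.29 in that oocyte and 7.50 to 9.45 in the others, where it was not the lowest. A further row shared with Gm6098 had 8.85 in that oocyte, its lowest, and 8.90 to 10.49 elsewhere. The low value therefore appeared in 3 of the 5 rows by more than 2 log2 units. Whether those rows share probes, and which transcripts each row reads, was not tested, so the low value is one of these rows and may not be that of Ube2l3 itself.

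**Figure D4:**
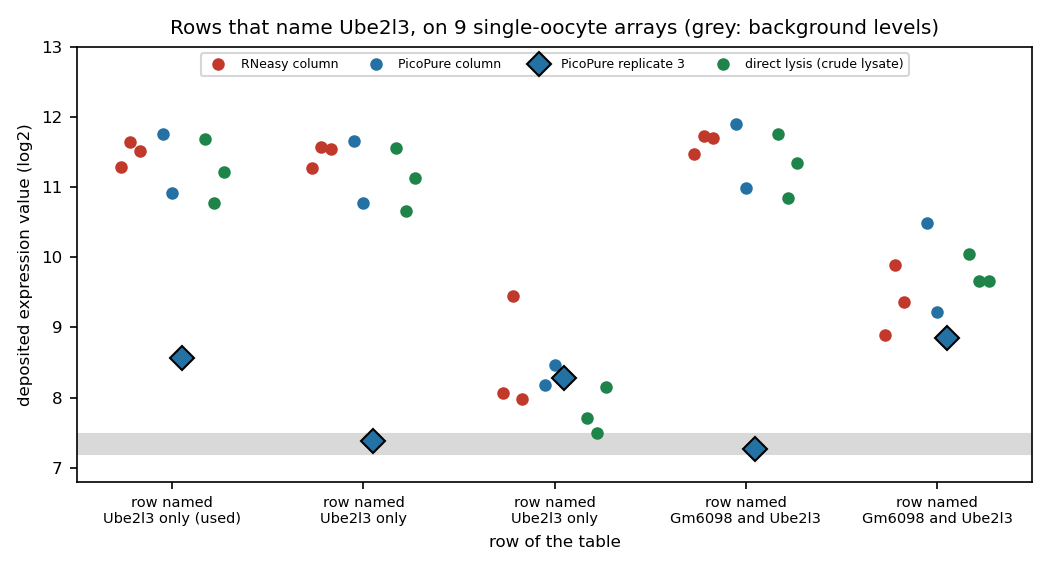
Expression values (vertical axis, log2) of the 5 rows that name Ube2l3 (horizontal axis), 1 point per oocyte, coloured by preparation, with PicoPure replicate 3 as an outlined diamond. That oocyte is at 8.56, 7.37 and 7.27 in 3 rows whose other points lie above 10.6, and within or near the range of the other points in the remaining rows.

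Other members with several rows mostly gave the same picture in each. In all, 9 members had more than 1 row, at most 3. The second rows of Ube2d2a, Ube2h, Ube2n, Ube2q2 and Ube2s followed the used row over the 9 arrays with Pearson's r of 0.953, 0.971, 0.988, 0.963 and 0.991, as a description over rows that may share probes. The exceptions were 1 row of Ube2v1, which ranged from 5.95 to 8.77, and 1 row of Ube2v2, which was above background on no array.

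Crude lysate and purified RNA gave similar values for most members. None of the 35 members passed (limma, adjusted p over 19938 genes), against 1.01% of all genes (0.667% lower and 0.341% higher in crude lysate). At an unadjusted p under 0.05 there were 5, Ube2a, Ube2b, Ube2dnl2, Ube2g2 and Ube2w (14.3%), against 14.2% of all genes. The median difference of the members was -0.01, against 0.00 for all genes, and 19 members (54.3%, against 49.4% of all genes) had a negative difference. Among those above background on all arrays the share was 60%, against 53.4%. For 32 members (91.4%) the 95% interval of the difference lay within 2-fold in either direction, as for 89.2% of all genes; the exceptions were Ube2cbp, Ube2l3 and Ube2o. Ube2dnl2 was the member whose crude lysates did not overlap the purified oocytes (2.86%, against 8.02% of all genes, 4.31% with crude lysates above and 3.72% below), with a difference of 0.19 ± 0.07 SE at values below background (limma, adjusted p = 0.286). Ube2a differed by -0.46 ± 0.19 SE and Ube2b by -0.21 ± 0.07 SE (limma, adjusted p = 0.335 and 0.228). The difference of Ube2a was -0.18 without direct lysis replicate 3, and that of Ube2b was -0.07 after a further quantile normalization.

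Between the kits 1 of 35 members passed, Ube2b, against 0.0602% of all genes (12 genes, 0.0201% lower and 0.0401% higher with PicoPure). At an unadjusted p under 0.05 there were 4, Ube2b, Ube2j2, Ube2n and Ube2z, which is 11.4% against 7.98%. The arrays of both kits did not overlap for 8 members (22.9%, against 13.9% of all genes). With PicoPure Ube2b, Ube2d1, Ube2g1, Ube2j2, Ube2n and Ube2w were lower on every array (17.1%, against 7.03% of all genes) and Ube2q1 and Ube2z higher (5.71%, against 6.92%), and of these 8 only Ube2b passed the test. For 29 members (82.9%) the interval lay within 2-fold, as for 86.6% of all genes. PicoPure minus RNeasy was negative for 23 members (65.7%, against 58.5% of all genes). Among those above background on all arrays the share was 68%, against 46.4%. By the moderated F over the 3 preparations 1 member passed, again Ube2b, against 0.637% of all genes, while 4 members had an unadjusted p under 0.05 (11.4%, against 12.8%).

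**Figure D5:**
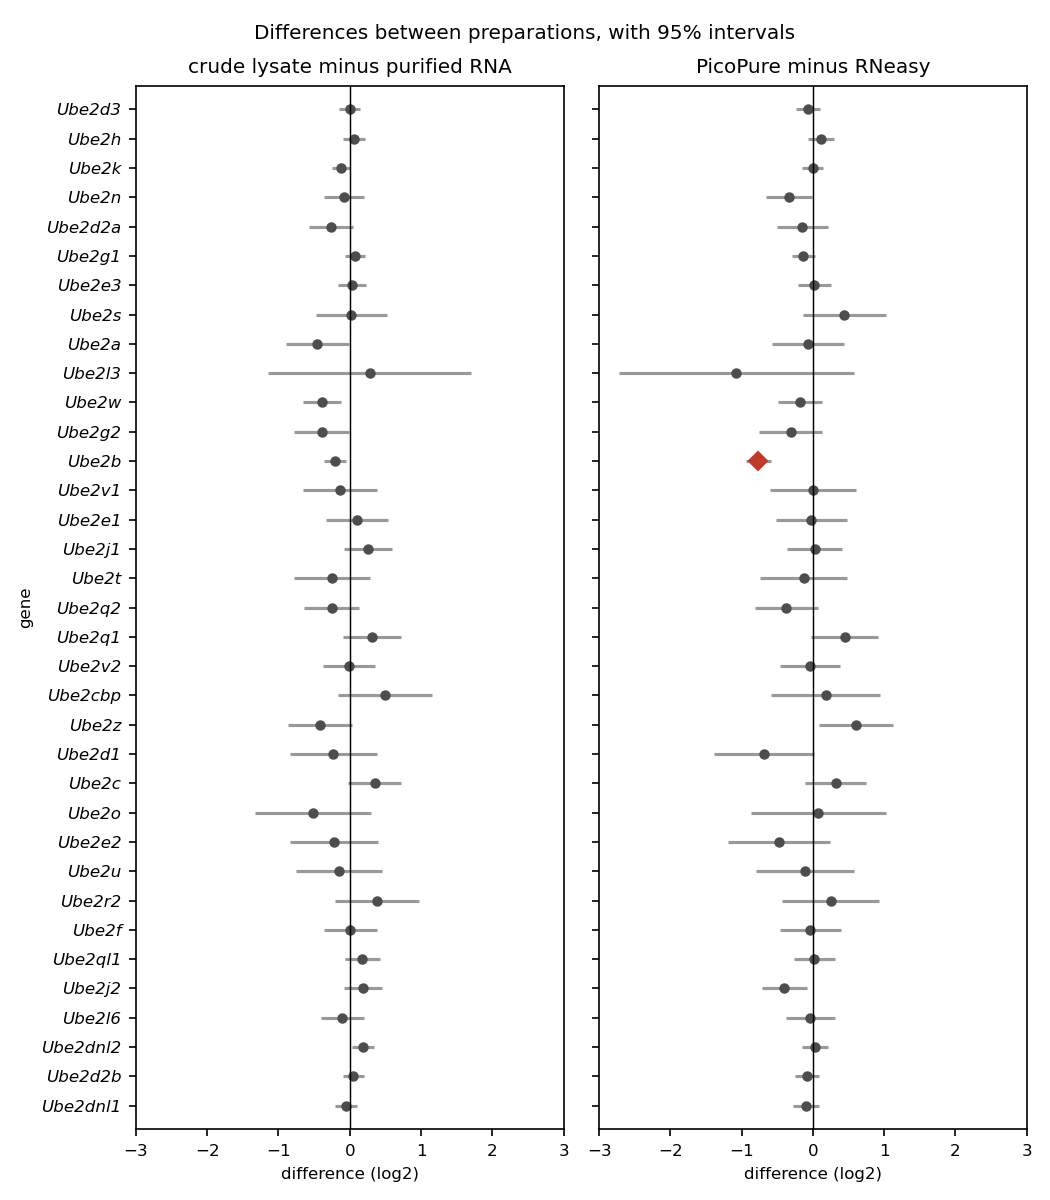
Differences (horizontal axis, log2) of the 35 genes between crude lysate and purified RNA and between PicoPure and RNeasy, with 95% intervals from limma that are not adjusted for the number of genes. The red diamond marks Ube2b at -0.76, the member past an adjusted p of 0.05; the widest intervals are those of Ube2l3.

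The spread between oocytes was larger for these genes than the middle of all genes. Among members above background on all arrays the median SD over the 9 oocytes was 0.31, against 0.22 for all 8597 such genes, whose quartiles were 0.13 and 0.37. Of these members the largest SDs were those of Ube2l3 (0.99), Ube2d1 (0.48), Ube2cbp (0.47), Ube2e2 (0.44) and Ube2z (0.43), each with 1 oocyte or 1 preparation apart. Ube2b came next, with an SD of 0.35 over all oocytes and 0.08 within preparations. RNeasy replicate 3 was the lowest oocyte for 6 of these 25 members (24%, against 13.9% of all such genes) and the highest for 4 (16%, against 12.2%). PicoPure replicate 3 was the lowest for 5 (20%, against 6.68%) and the highest for 3 (12%, against 13%).

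Among the enzymes around the E2 genes, those past the threshold were ligases and cofactors. Of 6 ubiquitin and ubiquitin-like protein genes, 8 activating enzyme genes and 8 other conjugating enzyme genes with a row, none passed in any comparison (limma, adjusted p). At an unadjusted p under 0.05 there were 0, 1 and 2 of them for crude lysate against purified RNA and 0, 0 and 1 between the kits. Their means ran from 6.95 (Urm1) to 12.54 (Sumo2), from 6.43 (Mocs3) to 11.48 (Nae1) and from 7.36 (Atg10) to 11.09 (Tsg101). Of 40 ligases and cofactors that work with the E2 enzymes, from Pias3 at 6.43 to Rnf168 at 12.39, 34 were above background on all arrays. In crude lysate 3 of the 40 were lower and 0 higher, Cdc20, Dcun1d5 and Rmnd5a, which is 7.5% against 0.667% of all genes lower. Between the kits 0 passed (limma, adjusted p). At an unadjusted p under 0.05 there were 12 of the 40 for crude lysate (30%, against 14.2% of all genes) and 7 between the kits (17.5%, against 7.98%). The list was chosen with earlier results of these data known, so these shares are description only. Its genes were also more often above background on all arrays (34 of 40) than all genes (43.1%).

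Rmnd5a, a core subunit of the CTLH ligase that works with Ube2h, was 1.90-fold lower in crude lysate. It had 11.44, 11.20 and 10.90 with RNeasy, 11.27, 10.99 and 10.79 with PicoPure and 10.02, 10.39 and 10.09 with direct lysis, so that the crude lysates lay below all purified oocytes (difference -0.93 ± 0.15 SE; limma, adjusted p = 0.0400). Its adjusted p lay between 0.0492 and 0.108 when single arrays were left out and then stayed under 0.05 only without RNeasy replicate 3. The adjusted p was 0.0605 after a further quantile normalization (difference -0.77) and 0.0525 with each array centred on its median. Cdc20, an activator of the anaphase-promoting complex, had 9.30, 8.58 and 9.14 in crude lysate and 9.86 to 10.48 in purified RNA (difference -1.13 ± 0.18 SE; adjusted p = 0.0325, and 0.0409 to 0.0853 with single arrays left out, under 0.05 only without direct lysis replicate 1). Its adjusted p was 0.0693 after the further quantile normalization (difference -0.97; limma). Dcun1d5, which helps attach NEDD8 to cullins, had 8.69, 8.27 and 9.19 in crude lysate and 11.45 to 11.66 in purified RNA (difference -2.80 ± 0.18 SE; limma, adjusted p = 0.00236).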

How the data were processed

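The labels give 9 samples, 3 per preparation, grouped by sample title. The series matrix holds log2 values as the authors deposited them, 35556 rows by 9 arrays. Their scale, not stated with the table, was read as log2 from the values (2.41 to 13.90, array medians 7.12 to 7.24). The submitters' processing notes list GCOS, Affymetrix Expression Console and GCRMA, with neither version nor order. A genome build was not given in the sources used here.

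Gene symbols came from the platform annotation: 21789 rows had 1 symbol, 1621 several and 12146 none. All 35 members matched RefSeq by gene identifier. Background used 1231 receptor genes and is a working limit. No filter or new normalization was applied. limma 3.58.1 in R 4.3.3 (lmFit, eBayes) was fitted over all 19938 genes and 9 arrays with 6 residual degrees of freedom, two-sided, with p-values adjusted over all of them (Benjamini-Hochberg, threshold 0.05). The fit was tested on simulated data. Precision is limited by the number of arrays. The contrasts were crude lysate minus the mean of both kits and PicoPure minus RNeasy, with a moderated F over the 3 preparations.

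The members and lists were chosen with earlier results of these data known. Values on every array were given for members past the threshold, the 4 smallest p-values of each test, the 6 highest means, the 6 largest SDs among members above background on all arrays, and Ube2a, Ube2b, Ube2c and Ube2s for their known part in meiosis; a further gene of this rule is not reported here. For pathway lists, genes past the threshold and the extremes of each list were named. Alternatives were a further quantile normalization, median centring, values raised to background, a filter on level, the mean of all rows of a gene, another moderation, a replicate block and leaving out each array.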

Additional observations from a re-analysis of the deposited data

Results flagged for a closer look

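A single oocyte stood apart from the rest for 9 of the 30 members above background on at least 1 array (30%), against 25.9% of all 12940 such genes, so the share was near the background. Over the 6 purified oocytes it did so for 6 members (20%, against 15.8%) and over all 9 oocytes, which include them, for 6 (20%, against 16.8%). For normally distributed values of 1 population chance flags about 1 in 20 groups. That rate does not apply to both sets joined, nor to sets that pool preparations, as these do. Ube2l3 was low in PicoPure replicate 3 (8.56) in both sets. Ube2d1 (9.65) and Ube2f (8.14) were high in RNeasy replicate 3 in both sets. Among the purified oocytes, RNeasy replicate 3 was low for Ube2cbp (8.13) and Ube2z (8.29), and PicoPure replicate 3 was low for Ube2d2a (11.38). Over all 9 oocytes, direct lysis replicate 3 was low for Ube2a (10.20) and Ube2t (9.92), and RNeasy replicate 1 was high for Ube2e2 (9.03).

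Rows shared by a member and another gene were not used in the comparisons, and 3 of 4 lay above background on all arrays. The row shared by Gm5434 and Ube2f had a mean of 10.63 (9.90 to 11.16), while the row of Ube2f alone had a mean of 7.64. The rows shared by Gm6098 and Ube2l3 had means of 9.57 and 11.00.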

How the results depend on the processing

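The number of members called between the kits went from 1 to 0 with an intensity trend and robust moderation and with a replicate block, and the number called by the moderated F from 1 to 0 with the replicate block, where Ube2b had an adjusted p of 0.111 and 0.0899 (limma). With single arrays left out the numbers were 0 to 1 between the kits, 0 to 2 by the F and 0 to 1 for crude lysate against purified RNA, where Ube2w was called without direct lysis replicate 2. Between 25 and 27 members were then above background on all arrays left, and 20 to 30 with the other settings tried. Ube2dnl2 reversed to -0.050 with values raised to background, where all its values became the arrays' levels. Over all genes, 24 to 232 were called for crude lysate, 0 to 15 between the kits and 4 to 96 by the F with single arrays left out, and 25, 0 and 14 with the replicate block, against 201, 12 and 127. The intensity trend and robust moderation, changed together, gave 0 between the kits over all genes. Replicate numbers showed no clear pairing of the oocytes: the deviations of same-numbered oocytes correlated between -0.07 and 0.11, and 1 of 9 pairs exceeded 0.1. The labels do not tie an oocyte to a mouse, and a weak effect shared by same-numbered oocytes was not tested. Cdc20 and Rmnd5a each had an adjusted p of 0.0735 with the block (limma). The block removes residual degrees of freedom. For the 5 members above background on no array, a difference between preparations is one between background values.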
